A study of Mus musculus with 16 samples.

Results

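The 7 mRNAs described here, Fth1, Ftl1, Slc40a1, Tfrc, Slc11a2, Aco1 and Ireb2, encode proteins that store, export, import or sense iron. They were taken by symbol from a count table of 46983 genes, and 7 of the 7 were among the 12805 genes that reached 1 CPM (counts scaled to the size of the library) in at least 10 of the 16 libraries. All libraries came from 46C embryonic stem cells (ESCs), a mouse line of strain 129Ola with GFP at the Sox1 locus, grown on gelatin with leukaemia inhibitory factor and serum replacement. The cells had received 70 pM of siRNA for 48 hr, either a non-targetting control or siRNA to RAM (gene symbol Ramac), the subunit that activates the mRNA cap methyltransferase RNMT. Each culture gave an input library, from a cytoplasmic extract of cells held in cycloheximide, and a polysome library, from the pooled heavy fractions of a sucrose gradient run with the rest of the extract. There were 4 replicates in each of the 4 groups (input control, input RAM siRNA, polysome control and polysome RAM siRNA), the study describes them as separate occasions, and every group carried an siRNA. The labels name no iron load or chelator, so iron supply was that of the culture medium.

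Iron-responsive elements (IREs) are short stem-loops in mRNA that are bound by the iron regulatory proteins when a cell is short of iron. In ferritin mRNAs the element lies in the 5′ UTR, near the cap, where a bound protein blocks the start of translation. In Tfrc mRNA several elements lie in the 3′ UTR, where bound protein protects the mRNA from cleavage. Fth1 and Ftl1 encode the heavy and light chains of ferritin, the iron store of the cell. Slc40a1 encodes ferroportin, which exports iron. Tfrc encodes the transferrin receptor, and Slc11a2 encodes DMT1, which carries iron out of the endosome after uptake. Aco1 encodes the cytosolic aconitase that becomes iron regulatory protein 1 when it loses its iron-sulfur cluster, and Ireb2 encodes iron regulatory protein 2, which is degraded when iron is plentiful.

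The elements were located in the annotated transcripts to show which mRNAs could be read by this system and where. The motif searched was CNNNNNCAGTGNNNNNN, in which the 5 bases before and the 5 bases after the loop had to pair, G-T pairs included. A bulged form, with 1 base left out of the 3′ arm, was searched too. The windows below are from GRCm38, written 5′ to 3′ on the transcript strand, with the 6 bases of the loop in capitals.
Fth1, 5′ UTR, exon 1, chr19:9982732-9982761, + strand: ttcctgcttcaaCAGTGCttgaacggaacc
Ftl1, 5′ UTR, exon 1, chr7:45459778-45459807, − strand: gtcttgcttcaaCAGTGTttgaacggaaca
Slc40a1, 5′ UTR, exon 1, chr1:45925464-45925493, − strand: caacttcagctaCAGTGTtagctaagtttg
Tfrc, 3′ UTR, exon 19, chr16:32631219-32631248, + strand: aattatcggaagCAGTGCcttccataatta
Tfrc, 3′ UTR, exon 19, chr16:32631598-32631627, + strand: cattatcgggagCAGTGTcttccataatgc
Tfrc, 3′ UTR, exon 19, chr16:32631663-32631692, + strand: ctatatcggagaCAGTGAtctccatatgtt
Tfrc, 3′ UTR, exon 19, chr16:32631710-32631739, + strand: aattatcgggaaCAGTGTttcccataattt
Slc11a2, 3′ UTR of transcript 205, exon 16, bulged form, chr15:100395152-100395181, − strand: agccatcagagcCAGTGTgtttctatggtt
The window started 87 bases from the annotated transcript start in Fth1, 78 bases in Ftl1 and 90 in Slc40a1. Neither form was found in a UTR of Aco1 (chr4:40143081-40198338, + strand) or Ireb2 (chr9:54863789-54912530, + strand). The full form was present in the 5′ UTR of 21 of 20031 genes (0.105%) and, as its background, on the opposite strand of 13 (0.0649%). In 3′ UTRs it was present in 110 of 20550 genes (0.535%) and on the opposite strand of 76. The bulged form was present in 27 5′ UTRs and 193 3′ UTRs. A match is only a match of letters.

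Sequencing depth was even, with 16647523 to 20147833 counts per library over the 16 libraries. In input, Ramac itself fell from 10.8 ± 0.608 to 3.02 ± 0.233 CPM (SD, n = 4 and 4), 28.0% of control. All 10 ESC markers were above 1 CPM in each group, and their summed level was 5057 to 5436 CPM in control input and 4194 to 4816 CPM in RAM siRNA input. The 4 erythroid markers summed to at most 0.634 CPM in any library. Of the 3 macrophage markers, Adgre1 and Csf1r had at most 2 counts in any library, and Cd68 was at 8.66 to 15.0 CPM in input. Below, CPM are scaled by the trimmed mean of M-values (TMM), a fold or ratio is a ratio of such CPM, and called means an adjusted p under 0.05 from edgeR's quasi-likelihood test over the 12805 genes.

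Levels of the 7 mRNAs spanned a wide range. Per kilobase of the main transcript, the ferritin mRNAs were the highest in control input, with 347 ± 17.6 CPM per kb for Ftl1 and 339 ± 14.1 for Fth1 (SD, n = 4), and their replicates overlapped. Tfrc followed at 161 ± 11.2 CPM per kb, below every ferritin replicate. Ireb2, at 20.1 ± 4.96, and Slc11a2, at 19.5 ± 0.846 CPM per kb, overlapped each other. Aco1 was at 9.22 ± 1.12 and Slc40a1 at 0.632 ± 0.0714 CPM per kb, each apart from its neighbour. Slc40a1 rested on 29 to 56 counts per library, against 2080 or more for either ferritin, so its values are the least precise of the 7. The order changed in polysomes. There Fth1, at 225 ± 18.6 CPM per kb, was above Ftl1, at 139 ± 10.4, in every control replicate, and Tfrc, at 114 ± 40.7, overlapped Ftl1. In the polysomes of RAM siRNA cells Fth1 was again above Ftl1 with no overlap, at 283 ± 45.6 against 145 ± 17.5 CPM per kb.

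**Figure D1:**
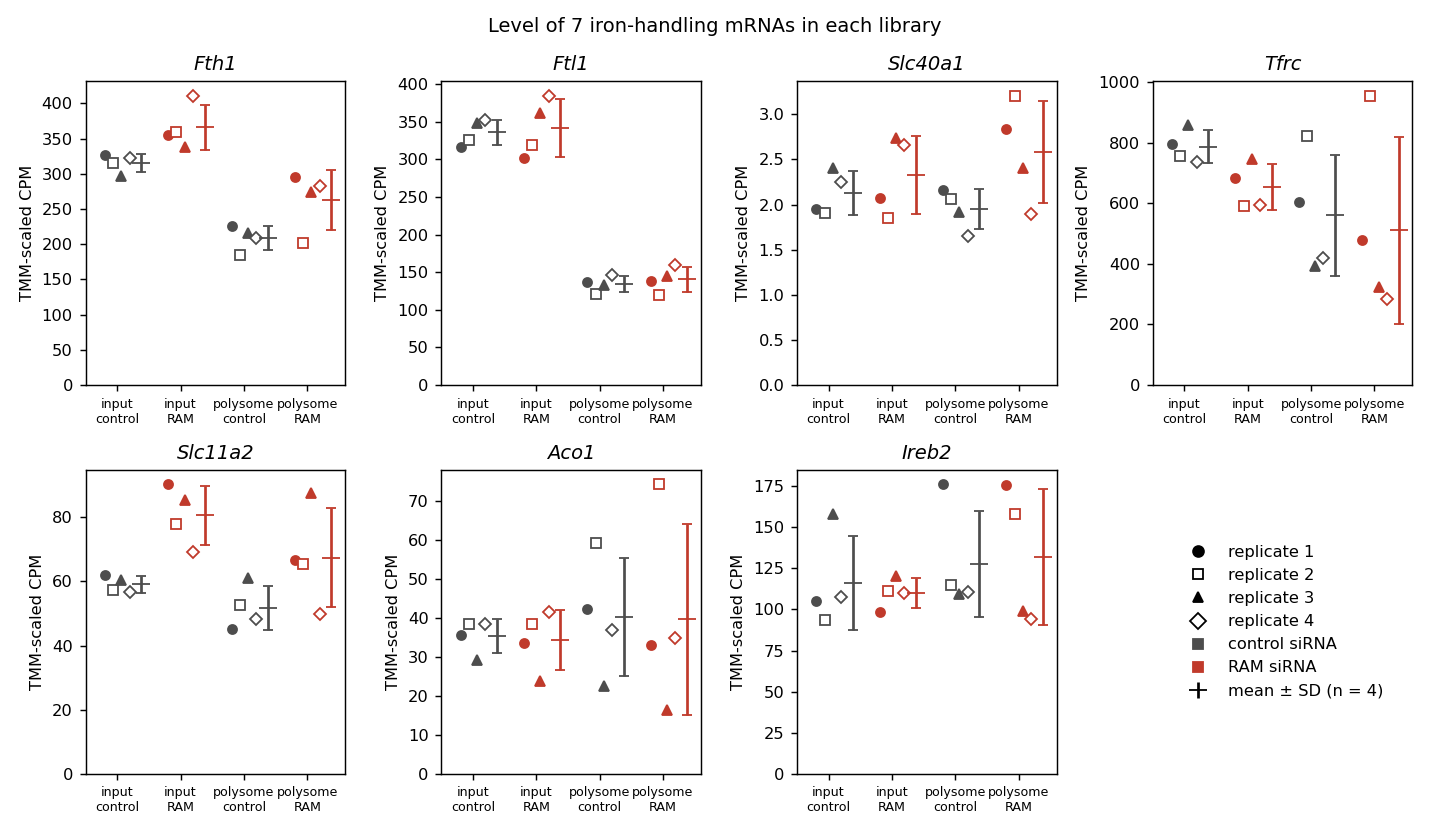
TMM-scaled CPM of each of the 7 mRNAs (linear axes from 0) in the 16 libraries, by group, with the replicate number as the symbol and the group mean ± SD (n = 4) as a bar. Ftl1 in polysomes lies between 119 and 160 CPM, below every input library, while Tfrc and Aco1 have 1 high replicate in each polysome group, replicate 2 in both.

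The Ftl1 count carries a further limit. Of its 894 windows of 75 bases, 625 (69.9%) also occur exactly in other annotated genes, mostly the copy Ftl1-ps1, so reads from these stretches may have been dropped or shared. The share was 3.86% in Fth1, with Gm6977 as the other gene, and 0 in the other 5 mRNAs. Ftl1-ps1 held at most 39 counts in any library. A further light chain copy, Ftl2-ps, described below, held 417 to 1302 counts per library. On the genome Ftl1 also overlaps the short gene Gm22133 on its own strand, which had 0 counts in every library, and Slc11a2 overlaps Gm5475 on the opposite strand, which had at most 1 count. A level of Ftl1 relative to other genes is therefore uncertain, while its ratios between groups compare the same stretch of sequence.

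The effect of RAM siRNA on the iron mRNAs was examined first in input. Slc11a2 rose, Fth1 was higher and Tfrc lower in every same-numbered pair but by less, and the other 4 mRNAs had log2 differences of -0.08 to 0.13. In such bulk samples, fewer cells with an mRNA and less of it per cell cannot be told apart. For Slc11a2, which moves iron across the endosomal membrane, the control libraries had 62.0, 57.4, 60.5 and 56.6 CPM in replicates 1 to 4, and the RAM siRNA libraries had 90.4, 77.9, 85.3 and 69.3. All 4 RAM siRNA libraries were above all 4 controls, as was the case for 9.395% of all genes tested. The log2 difference was 0.45 ± 0.08 (SE), a 1.37-fold rise (95% interval 1.20 to 1.55, adjusted p = 0.00523). The counts do not separate the transcripts with and without the 3′ element. When replicate 1 was left out of both groups the adjusted p was 0.0622, and without replicate 2 it was 0.0520, with log2 differences of 0.41 and 0.45.

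Fth1 in input was at 327, 315, 297 and 322 CPM in control and at 356, 359, 338 and 411 CPM in RAM siRNA cells. The groups did not overlap, and RAM siRNA was higher within each of the 4 same-numbered pairs, as for 25.9% of all genes. The log2 difference was 0.21 ± 0.08 (1.16-fold, interval 1.03 to 1.31), which was not called (adjusted p = 0.0939). Replicates of the same number deviated together, so the fit was repeated with the replicate number as a block. In the blocked fit Fth1 rose (log2 0.21 ± 0.04, adjusted p = 0.000759). Its partner Ftl1 was at 317, 326, 348 and 353 CPM in control and 302, 319, 361 and 385 CPM in RAM siRNA cells. Ftl1 was higher in 2 of 4 pairs, with a fold of 1.02 (interval 0.891 to 1.16, adjusted p = 0.891).

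Tfrc in input was at 796, 755, 859 and 735 CPM in control and at 683, 591, 746 and 594 CPM in RAM siRNA cells. The groups overlapped by 1 library, replicate 3 of the RAM siRNA group, but RAM siRNA was lower within each of the 4 pairs, as for 24.6% of all genes. The log2 difference was -0.27 ± 0.09, a fold of 0.831 (interval 0.721 to 0.957), not called without the block (adjusted p = 0.0817) and called with it (adjusted p = 4.14e-05). Slc40a1, Aco1 and Ireb2 had folds of 1.10, 0.969 and 0.949, with intervals of 0.834 to 1.44, 0.777 to 1.21 and 0.772 to 1.17, and none was called with or without the block. Thus 1 of 7 was called higher and 0 lower. Of all genes, 7.14% were called higher and 5.81% lower. With the block 2 were higher and 1 lower, against 20.6% higher and 18.7% lower over all genes. With 7 genes these counts do not set the group apart from the background. The summed ESC markers were lower in every RAM siRNA input library than in every control. By themselves Nanog, Esrrb, Fgf4 and Dppa5a were lower without overlap. Pou5f1, Sox2, Zfp42, Klf4, Tdgf1 and Utf1 overlapped between the groups. Tdgf1 was the largest part of the sum, at 1873 to 2300 CPM in control and 1487 to 2208 CPM in RAM siRNA input. The summed level of the 5 extra-embryonic and endoderm markers was higher without overlap. It was 4.27 to 5.52 CPM in control and 6.23 to 7.89 CPM in RAM siRNA input. Of these 5 markers only Gata6 was apart by itself, at 2.43 to 3.26 CPM in control and 3.93 to 4.93 CPM in RAM siRNA input. Gata4, Sox17, Afp and Cdx2 each overlapped between the groups. The part of either in these differences was not tested.

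In polysomes the same mRNAs were compared between RAM siRNA and control. Slc11a2 was at 45.3, 52.8, 61.1 and 48.2 CPM in control and 66.6, 65.6, 87.7 and 49.9 CPM in RAM siRNA cells, higher in 4 of 4 pairs but with overlapping groups. Its fold was 1.30 (interval 0.953 to 1.78, adjusted p = 0.655, and 0.0422 with the block). Fth1 was at 226, 185, 216 and 208 CPM in control and 296, 201, 274 and 282 CPM in RAM siRNA cells, and 3 of the 4 RAM siRNA libraries were above every control. Its fold was 1.26 (interval 0.959 to 1.66, adjusted p = 0.655, and 0.0678 with the block). Fth1 and Slc40a1 were also higher in 4 of 4 pairs, as were 14.9% of all genes in polysomes. Slc40a1 was at a fold of 1.32 (interval 0.931 to 1.88, adjusted p = 0.696). Tfrc, Aco1, Ireb2 and Ftl1 had folds of 0.912, 0.986, 1.03 and 1.04, with the widest interval for Aco1 (0.509 to 1.91). These intervals come from the fit without the block and include the shared deviations of same-numbered libraries. With the block the SE of the log2 difference fell from 0.40 to 0.13 for Tfrc and from 0.43 to 0.13 for Aco1. The blocked log2 differences were -0.24 and -0.13, and neither was called. Thus 0 of 7 were called without the block, and 0 of 7 had an unadjusted p under 0.05. DESeq2 and limma-voom also called 0 of the 7, with 1 and 0 at an unadjusted p under 0.05. Over all genes 0.0234% were called lower (3 genes) and 0% higher. With the block 1 of 7 was called higher and 0 lower, against 8.22% and 7.01% of all genes. TMM scales each library by its total and by a factor that holds the typical gene level between libraries. These polysome CPM therefore cannot show a change in the whole amount of RNA on polysomes.

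For an mRNA with a 5′ element, the question closest to IRE control is whether its polysome to input ratio differed between siRNAs. Elements in the 3′ UTR, as in Tfrc, act on the amount of mRNA instead. The ratio of each of the 7 was tested as an interaction of fraction and siRNA. The ratio of Fth1 was 0.691, 0.588, 0.727 and 0.647 in control cultures and 0.831, 0.560, 0.812 and 0.686 in RAM siRNA cultures. The ratio of Ftl1 was 0.432, 0.373, 0.383 and 0.414 in control and 0.457, 0.374, 0.401 and 0.416 in RAM siRNA cultures. The 2 sets of cultures overlapped for both ferritins. RAM siRNA changed the Fth1 ratio by 1.09-fold (interval 0.825 to 1.43) and the Ftl1 ratio by 1.03-fold (interval 0.793 to 1.33). Of the other 5, the point estimates ran from 0.953-fold in Slc11a2 to 1.21-fold in Slc40a1, and the intervals of Tfrc (0.576 to 2.09) and Aco1 (0.494 to 2.09) were the widest. The number called was 0 of 7 in edgeR, DESeq2 and limma-voom, also with an unadjusted p under 0.05 in place of the adjusted one. Over all genes edgeR called 0% lower and 0% higher, with 100 genes at an unadjusted p under 0.05, DESeq2 called 1 gene and limma-voom 0. These intervals come from the fit without a block. With a block within each fraction the SE of the log2 change fell from 0.44 to 0.15 for Tfrc and from 0.49 to 0.15 for Aco1, at values of 0.03 and -0.06, and again 0 of 7 were called.

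**Figure D2:**
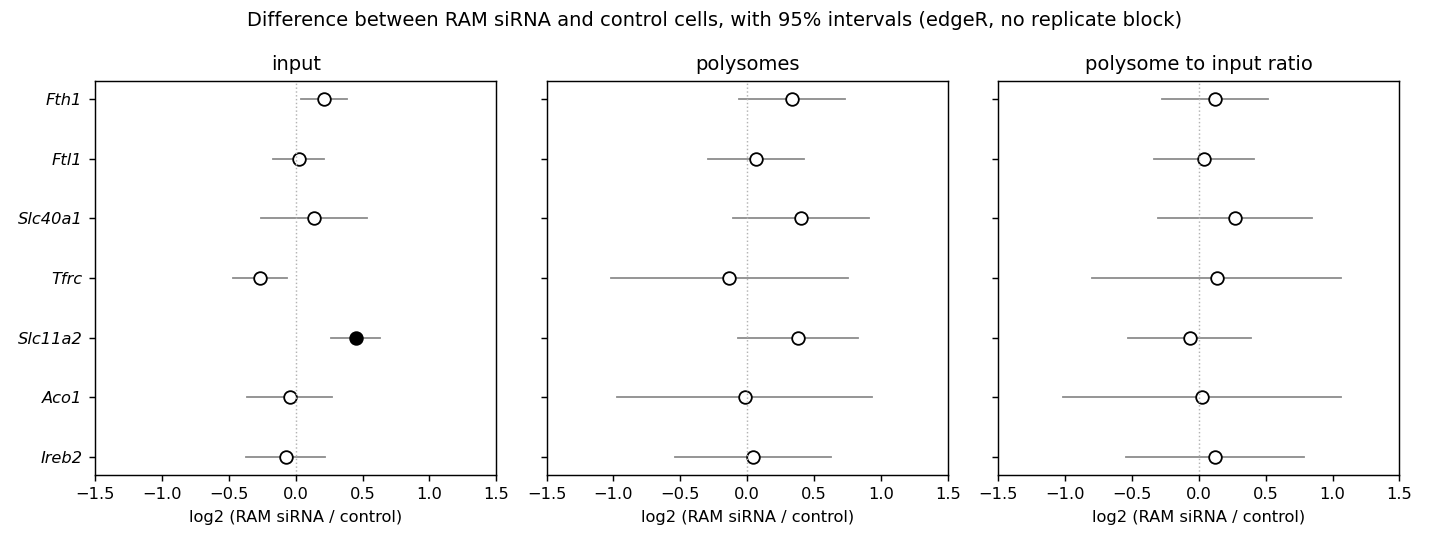
The log2 difference between RAM siRNA and control cells for each of the 7 mRNAs in input (left), in polysomes (middle) and in the polysome to input ratio (right), with 95% intervals from edgeR without the replicate block; a filled symbol marks an adjusted p under 0.05. Slc11a2 in input, at 0.45, is the one filled symbol, and intervals are widest for Tfrc and Aco1 in polysomes and in the ratio.

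Between fractions of the same cells, both ferritin mRNAs were lower in polysomes than in input, in CPM and so relative to other genes. In control cells Ftl1 was at 137, 122, 133 and 146 CPM in polysomes, below every input library, a ratio of 0.400 (interval 0.336 to 0.476, adjusted p = 2.31e-06). The Fth1 ratio was 0.662 (interval 0.557 to 0.788, adjusted p = 0.000678), again without overlap. Of all genes, 30.4% lay below input without overlap, 33.0% were called lower in polysomes and 34.4% were called higher. Thus 2 of 7 were called lower and 0 higher, and a low ratio was common over all genes: 10.8% of all genes had a ratio below that of Ftl1 and 27.4% below that of Fth1. Both ferritins have short coding sequences, 549 nt in Ftl1 and 546 nt in Fth1. Among the 1528 tested genes with coding lengths of 400 to 700 nt, the median ratio was 1.10, and 7.85% were below Ftl1 and 23.2% below Fth1. In the 582 genes with shorter coding sequences the median ratio was 0.541. Over 12112 genes with a coding length, Spearman's rho of length and ratio was -0.166, given as a description across genes, which are not independent replicates. Input and polysome RNA were purified by different procedures, and the part of this in a ratio cannot be told apart from that of ribosome loading.

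In RAM siRNA cells the Ftl1 ratio was 0.411 (interval 0.313 to 0.540, adjusted p = 0.000237). The Fth1 ratio was 0.719 (interval 0.542 to 0.955, adjusted p = 0.0499), at the edge of the threshold, and the call was lost in 10 of 12 fits that left out 1 library or 1 replicate number. With 2 of 7 called lower and 0 higher, the background was 26.2% lower and 27.1% higher. The copy Ftl2-ps is a further ferritin light chain sequence in the annotation, named after its values were seen. It had 60.4 ± 2.66 CPM in control input and a ratio of 0.455 ± 0.0344 (SD, n = 4), beside 0.400 ± 0.0272 in Ftl1. Whether reads counted for Ftl2-ps came from Ftl1 was not tested.

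The ferroportin mRNA Slc40a1, which has a 5′ window of the same kind as the ferritins, had a control ratio of 0.917 (interval 0.694 to 1.21, adjusted p = 0.564). Its cultures had ratios of 1.11, 1.08, 0.796 and 0.732 in control and 1.37, 1.73, 0.878 and 0.714 in RAM siRNA cells, so replicates 1 and 2 were above 1 and replicates 3 and 4 below 1 for either siRNA. Epas1, a hypoxia-inducible factor subunit with a bulged 5′ window, had a control ratio of 0.757 (adjusted p = 0.0156) and a RAM siRNA ratio of 0.839 (adjusted p = 0.432). The 15 tested genes with a full 5′ motif, the 3 among the 7 included, had a median log2 ratio of -0.12 in control cells, and 8 of 15 were below 0, beside a median of 0.03 over all genes. Having a match thus went with ratios on either side of 1. The 15 include the copy Ftl1-ps1, at a ratio of 0.449. The full 5′ motif was found in 21 genes and on the opposite strand of 13, so many matches may be chance. These ratios therefore do not show how mRNAs with a working IRE load onto polysomes.

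Tfrc, with 4 matches to the searched motif in its 3′ UTR, had polysome levels that were far apart between replicates. They were 605, 822, 392 and 420 CPM in control and 478, 956, 324 and 285 CPM in RAM siRNA cells, with replicate 2 the highest for either siRNA. The highest was 2.10 times the lowest in control and 3.35 times in RAM siRNA cells, against 1.17 and 1.26 times in input. The median over all tested genes was 1.54 and 1.91 times in the polysome groups. The control ratio of Tfrc was 0.712 (interval 0.514 to 0.985, adjusted p = 0.0607, and 0.0307 with the block). With the block, 3 of 7 were called lower in polysomes of control cells and 0 higher, beside 36.0% lower and 36.5% higher over all genes. Without replicate 2 the log2 ratio went from -0.49 to -0.75 (adjusted p = 0.00486) in control cells, and from -0.36 (adjusted p = 0.410) to -0.90 (adjusted p = 0.00514) in RAM siRNA cells. Without replicate 3 it went the other way, to -0.31 (adjusted p = 0.279) in control and -0.12 (adjusted p = 0.837) in RAM siRNA cells, so the size of the Tfrc ratio rested on which replicates were used. Slc11a2 had ratios of 0.730 to 1.01 in control and 0.720 to 1.03 in RAM siRNA cultures, and was not called in either (adjusted p = 0.174 and 0.281).

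Of the regulators, Aco1 varied widely in polysomes, and Ireb2 was near the median spread there but varied widely in control input. Aco1 in polysomes was at 42.3, 59.1, 22.4 and 36.8 CPM in control and 33.0, 74.2, 16.4 and 34.8 CPM in RAM siRNA cells, with replicate 2 the highest and replicate 3 the lowest in both. Its highest library was 4.52 times its lowest in RAM siRNA polysomes, a wider spread than in 96.5% of all tested genes. In control input the spread was 1.31 times. Ireb2 in polysomes was at 176, 115, 109 and 110 CPM in control and 176, 158, 98.9 and 94.4 CPM in RAM siRNA cells, so replicate 1 was the highest in both. Its highest library was 1.61 times its lowest in control and 1.86 times in RAM siRNA polysomes, near the medians over all genes. In control input the spread of Ireb2 was 1.69 times, wider than in 92.7% of tested genes. The median over all tested genes was 1.23 times there. Neither gene was called between polysomes and input, with control ratios of 1.14 (interval 0.798 to 1.62) for Aco1 and 1.10 (interval 0.814 to 1.49) for Ireb2. The ferritins were the steadiest of the 7 in polysomes, with the highest library 1.22 times the lowest for Fth1 and 1.20 times for Ftl1 in control cells.

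**Figure D3:**
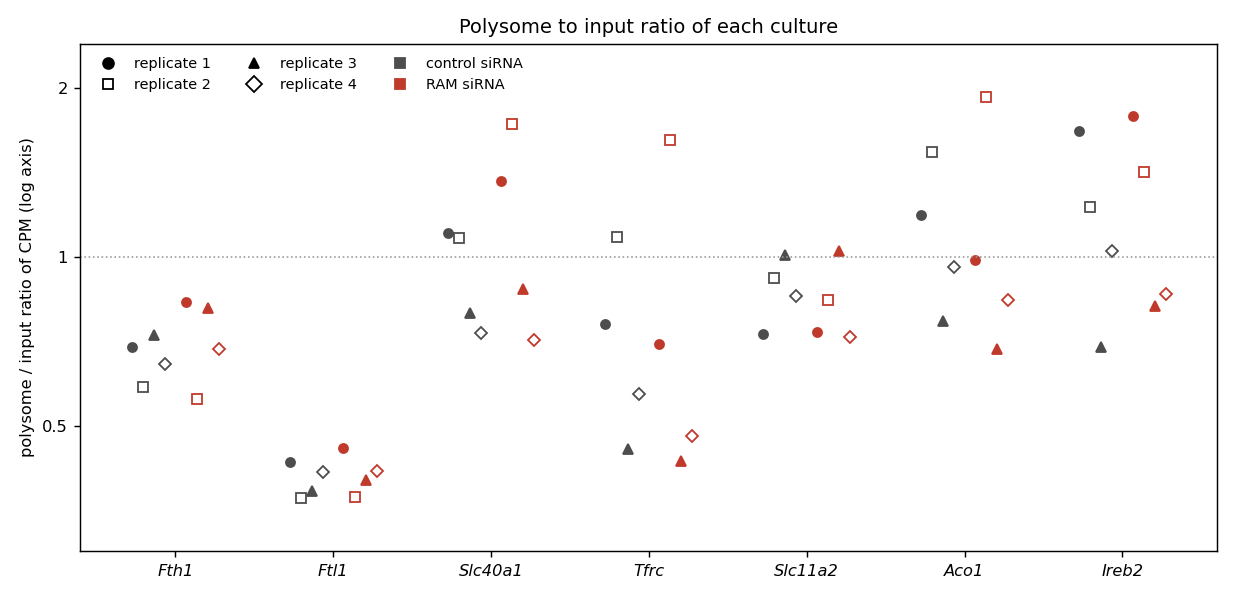
Polysome to input ratio of CPM for each culture (log2 axis) of the 7 mRNAs, grey for control and red for RAM siRNA, with the replicate number as the symbol; the dotted line is a ratio of 1. Every ferritin culture lies below 1, from 0.373 to 0.831, and Tfrc and Aco1 have replicate 2 as the highest culture for either siRNA.

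**Figure D4:**
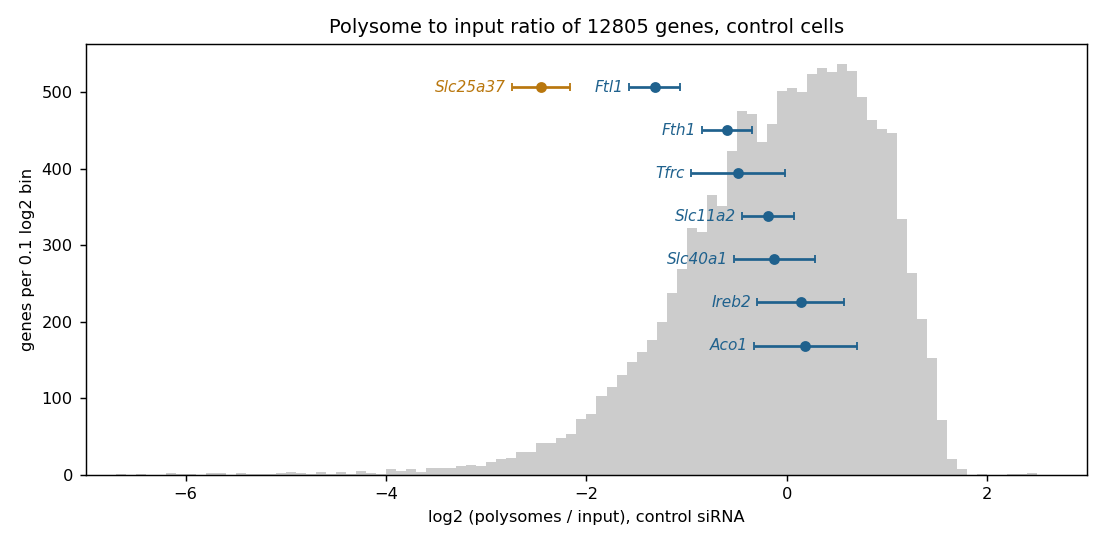
Numbers of genes by log2 ratio of polysomes to input in control cells (bins of 0.1, 12805 genes tested, the few outside the axis not drawn), with the 7 mRNAs in blue and Slc25a37, a mitochondrial iron importer, in orange, each with its 95% interval. Ftl1, at -1.32, lies on the lower flank of the distribution and Aco1, at 0.19, near its middle; heights of the symbols carry no value.

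A wider list of 52 iron genes (uptake, export, storage, haem, iron-sulfur clusters and other mRNAs with an IRE) gave context, and 47 of them were tested. In input edgeR called 2 of 47 higher after RAM siRNA and 0 lower, with 7 at an unadjusted p under 0.05, and DESeq2 and limma-voom likewise called 2 higher and 0 lower. Of all genes 7.14% were called higher, 5.81% lower, and 27.9% had an unadjusted p under 0.05. The median log2 difference was 0.02, beside 0.003 over all genes. Steap3, the endosomal ferrireductase that prepares iron for Slc11a2, rose from 66.9 ± 4.11 to 111 ± 5.91 CPM (log2 0.73 ± 0.07, adjusted p = 9.11e-05). Hmox1, haem oxygenase 1, which frees iron from haem, rose from 106 ± 3.79 to 132 ± 2.91 CPM (log2 0.31 ± 0.06, adjusted p = 0.00732). With the block 9 were higher and 4 lower, beside 20.6% and 18.7% of all genes. Of those that the rule named in any case, Epas1 had a log2 difference of -0.23 (adjusted p = 0.264, and 0.00551 with the block), and Fbxl5 (0.09) and Ncoa4 (0.11), the last a receptor for ferritin breakdown, were not called in either fit. In polysomes edgeR called 0 of 47, with 3 at an unadjusted p under 0.05, beside 8.97% of all genes. Of the 47, limma-voom called 0 and DESeq2 called 1 lower and 1 higher. Over all genes DESeq2 called 300, and edgeR and limma-voom called 3 each. The blocked fit called 2 of the 47 lower and 1 higher, beside 7.01% lower and 8.22% higher over all genes. In the change of the ratio 0 of 47 were called by edgeR, DESeq2 and limma-voom, with 1 at an unadjusted p under 0.05 in each.

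Likeness to other genes was described by the Pearson r of log2 CPM over the 16 libraries after the mean of each group was taken off, so that r reflects deviations of replicates that share a number. Tfrc was most like Akap11 (r = 0.989) and Rlf (0.988), and Aco1 most like Pwp2 (0.983) and Kif20a (0.982). Ireb2 was most like Ppp2r2a (0.964) and Cdc73 (0.961). Ftl1 was most like Cdk2 (0.943) and Coro1b (0.942), Slc11a2 most like B4galt5 (0.934) and Vopp1 (0.930), Slc40a1 most like Aldh7a1 (0.922) and Shroom4 (0.919), and Fth1 most like Pfkfb1 and Pdk1 (both 0.916). No member was among the closest genes of another.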

How the data were processed

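The deposited file held raw counts per gene, which the authors made from paired reads of ribosome-depleted, stranded libraries with STAR 2.5.1b on mm10 (GRCm38) and HTSeq; the strand setting and annotation release are not given in the sources used here. Counts were analysed with edgeR 4.0.16 in R 4.3.3 (quasi-likelihood test, Benjamini-Hochberg adjustment over all 12805 genes with 1 CPM in 10 of 16 libraries), with TMM factors set once over the 16 libraries. DESeq2 1.42.0, limma-voom (limma 3.58.1), other scalings and filters, a replicate block and left-out libraries were alternatives. Each design without a block was checked on simulated counts drawn with no replicate effect. That check does not cover the shared deviations of same-numbered libraries or the blocked fits. The members and lists were chosen with earlier results of these data known. Genes named were the 7 members, Ramac, list genes past the threshold (the 8 with the smallest p where more were), Epas1, Fbxl5, Ncoa4 and 2 genes most like each member; 1 gene of this rule is not reported here.

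Same-numbered libraries deviated together in each pair checked, over 9140 genes, with r of 0.400 to 0.797 between siRNAs in input, 0.625 to 0.944 in polysomes, 0.237 to 0.571 between fractions in control and 0.297 to 0.711 in RAM siRNA cells. The numbers come from the labels. Blocked values stand beside a result where they change its call. Depth was 16647523 to 20147833 counts per library. Gene models, transcript lengths and UTR sequences came from GENCODE M21 on GRCm38, in place of the RefSeq lengths planned. Coding-length classes and the motif search were chosen after the data were seen.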

Additional observations from a re-analysis of the deposited data

Results flagged for a closer look

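Ireb2 in control polysomes had 1 library far from the other 3. Replicate 1 was at 176.236 CPM, and the others were at 109 to 115 CPM, a gap of 0.914 of the whole range, above the limit for 4 samples. Of 42 groups of 4 libraries examined, 1 stood out this way, and chance alone gives about 1 in 20. In RAM siRNA polysomes replicate 1 was again the highest, also at 176 CPM, with replicate 2 at 158 CPM. Without replicate 1 the control ratio of Ireb2 went from a log2 of 0.14 to -0.10 and was not called in either fit.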

How the results depend on the processing

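The low ratio of Ftl1 and the control ratio of Fth1 kept their call under all alternatives run, and the input rise of Slc11a2 kept it except where replicate 1 or 2 was left out of both groups. The number of the 7 called in input went from 1 to 2 with library size alone, no filter or filterByExpr, and to 3 with DESeq2 or the replicate block, and was 0 to 2 with libraries left out. In polysomes it went from 0 to 1 with the replicate block. In control polysomes against input it went from 2 to 3, with Tfrc added, under upper quartile, no filter, DESeq2, limma-voom and the replicate block, and to 4 with library size alone, a scaling that moved the median log2 of all genes by -0.12 (-0.11 in RAM siRNA cells), and in RAM siRNA cells from 2 to 1 with RLE, upper quartile, no filter or filterByExpr, and 1 to 3 with libraries left out. By library size alone the control input means were 329 CPM for Fth1 and 61.7 CPM for Slc11a2. The replicate block, which pairs same-numbered samples, changed the calls of Fth1 and Tfrc in input, Slc11a2 in polysomes and Tfrc in the control ratio, and no other call of a member. Over all genes, calls in input went from 1658 to 5039 with the block and 345 to 2515 with libraries left out, in polysomes from 3 to 35 (no filter), 18 (filterByExpr), 300 (DESeq2), 1949 (block) and 0 to 47, in the ratio from 0 to 1 (DESeq2) and 2 (block within fraction), and for polysomes against input in RAM siRNA cells from 6826 to a range of 4048 to 8584 with libraries left out.

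Only members that were not called changed sign. Ftl1 in input was at -0.032 without a filter and -0.011 with filterByExpr. Aco1 in polysomes was at 0.0063 (RLE), 0.013 (upper quartile) and 0.012 (DESeq2). In the change of the ratio, Slc11a2 was at 0.0087 without a filter, and Aco1 at -0.076 (limma-voom), -0.022 (block), -0.059 (block within fraction) and -0.076 (block by culture). With libraries left out, log2 values ran in input from -0.038 to 0.080 for Ftl1, -0.15 to 0.095 for Aco1 and -0.17 to 0.11 for Ireb2. In polysomes they ran from -0.0051 to 0.13 for Ftl1, -0.63 to 0.11 for Tfrc, -0.52 to 0.24 for Aco1 and -0.13 to 0.24 for Ireb2. In the change of the ratio they ran from -0.030 to 0.11 for Ftl1, -0.36 to 0.38 for Tfrc, -0.22 to 0.051 for Slc11a2, -0.47 to 0.28 for Aco1 and -0.064 to 0.32 for Ireb2. For polysomes against input they ran from -0.061 to 0.38 for Aco1 and -0.10 to 0.39 for Ireb2 in control cells, and from -0.066 to 0.34 for Slc40a1 and -0.29 to 0.47 for Aco1 in RAM siRNA cells. The causes were not tested. Leaving out a replicate number from every group was added after the data were seen. The low counts of Slc40a1 limit its precision.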

Other observations

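Other iron genes differed strongly between polysomes and input of control cells. Of the 47 tested in a list of iron genes, 24 were called higher in polysomes, 8 lower and 15 neither, with a median log2 ratio of 0.48, beside 0.03 over all genes, of which 34.4% were called higher and 33.0% lower. All 4 haem breakdown genes were higher, among them Hmox1 (ratio 2.15), Hmox2 (2.34) and the biliverdin reductase Blvrb (2.55). Of the 8 haem synthesis genes 6 were higher, led by Urod, uroporphyrinogen decarboxylase, at 2.64. The iron chaperone Pcbp1, which delivers iron to ferritin, was at 2.34.

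Of the 8 iron genes called lower, 2 were importers of iron into mitochondria and 4 were iron-sulfur cluster assembly genes. The other 2 came from the further mRNAs for which an IRE is described, Epas1 among them. Of the 4 such mRNAs tested, 1 was called higher and 1 neither way. Both importers of iron into mitochondria were lower, Slc25a37 (mitoferrin 1) at a ratio of 0.182 with 24.1 ± 1.21 CPM in input and 4.39 ± 0.570 CPM in polysomes (SD, n = 4), and Slc25a28 (mitoferrin 2) at 0.468. Of 17 iron-sulfur cluster assembly genes 4 were lower and 6 higher, with Bola3 at 0.234 and Isca1 at 0.302. The same genes had ratios of 0.169 for Slc25a37, 0.457 for Slc25a28, 0.264 for Bola3 and 0.361 for Isca1 in RAM siRNA cells, and all 4 were called there too.

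Cdc14a, a phosphatase gene of the list for which an IRE is described, was named after its values were seen. After RAM siRNA its level in every polysome library was below that of every control library, as was the case for 4.38% of all genes tested. Its polysome means, control first, were 10.4 ± 1.32 and 4.42 ± 1.12 CPM. Its input means, in the same order, were 10.2 ± 0.849 and 8.36 ± 1.25 CPM. The log2 difference in polysomes was -1.23 ± 0.22 (adjusted p = 0.0768, and 1.15e-05 with the block), and that of the ratio was -0.94 ± 0.24 (unadjusted p = 0.00124, adjusted p of 1.00). Its counts were 56 to 224 per library.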
